A study of Homo sapiens with 6 samples.

Results

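The genes for the subunits, regulators and assembly chaperones of the proteasome were followed in Jurkat cells, a human leukemic T lymphocyte line, exposed to BPAF (bisphenol AF), the analogue of bisphenol A that carries fluorine. They were taken as every protein-coding Ensembl gene whose symbol starts with PSMA, PSMB, PSMC, PSMD, PSME, PSMF or PSMG followed by a number. The rule found 48 genes among the 60856 features of the tables, and 47 of them passed the filter on low counts. PSMB11, the thymus-specific beta subunit, held 0 counts in all 6 libraries, which allows a level of up to 0.148 CPM for counting error alone. The 3 control libraries came from wild-type Jurkat cells given 0.1% dimethyl sulfoxide (DMSO), and the 3 exposed libraries from the same line given 1 µM BPAF. All 6 shared the line, its medium with fetal bovine serum, poly(A) selection and stranded paired-end sequencing. The sample labels give 12 h of exposure and the treatment protocol gives 24 h. No source used here gives the vehicle of the BPAF medium. The libraries of a group are called biological replicates, and whether they were separate cultures is not stated, so p-values measure only the spread between these libraries.

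The proteasome is the large protease that degrades proteins tagged with ubiquitin. Its core particle is a barrel in which rings of alpha subunits (PSMA genes) close both ends of paired beta rings (PSMB genes) that hold the cutting sites. A regulatory particle with a base of ATPases (PSMC genes) and a lid of further subunits (PSMD genes) binds ubiquitin chains, removes them and feeds the unfolded protein into the barrel. In lymphocytes, alternative catalytic beta subunits form the immunoproteasome, which produces peptides for presentation on class I molecules. The subunit genes are transcribed in a coordinated way, and the transcription factor NFE2L1 raises them when proteasome activity is low.

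Library totals ran from 20253656 to 22617613 counts and overlapped between the groups. All 11 Jurkat T cell markers were detected, with a summed level of 3212 to 3268 CPM (counts per library total after scaling by TMM) in DMSO and 3129 to 3182 in BPAF. Summed B cell markers were 12.8 to 15.2 CPM in DMSO and 11.7 to 12.5 in BPAF. Endothelial markers summed to 119 to 127 CPM and 115 to 117 CPM, nearly all of it PECAM1, with CDH5 at 0. Myeloid, NK, epithelial and fibroblast markers each summed to under 5 CPM in every library, with EPCAM, CDH1 and DCN at 0. Erythroid markers summed to 15.0 to 16.9 CPM in DMSO and 13.7 to 16.8 in BPAF. The part of these marker levels in the results below was not tested.

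Proteasome genes were slightly lower in BPAF than in DMSO across the complex. Of the 47 tested genes, 15 fell and 0 rose (edgeR quasi-likelihood test, Benjamini-Hochberg adjusted p below 0.05). Over all 15490 tested genes, 3.40% were called lower and 2.65% higher. The called proteasome genes were lower by 7.26% to 15.6%, with a median of 10.5%. The 15 were PSMA2, PSMA3, PSMA4, PSMA5, PSMA6, PSMB1, PSMB3, PSMB7, PSMC2, PSMC3, PSMC6, PSMD8, PSMD10, PSMD13 and PSMD14. No proteasome gene was called higher by DESeq2 or limma-voom either, and in these fits on counts 0 were higher at an unadjusted p below 0.05. In edgeR, 26 of the 47 had an unadjusted p below 0.05, against 3076 of all 15490 tested genes. In DESeq2 it was 24, against 2177 of all. The counts at an unadjusted p below 0.05 given for smaller groups are to be read beside these shares. In bulk RNA, fewer cells of a type and less RNA per cell cannot be told apart.

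Direction was shared more widely than the calls. The log2 fold change was below 0 in 46 of the 47 genes, against 49.2% of all tested genes, and the exception was the assembly chaperone PSMG4 (with upper quartile scaling 44 were below 0, PSMD2 and PSMG3 having turned). On the deposited TPM, log2(TPM + 1), it was below 0 in 26 of the 47, against 26.2% of all tested genes. In CPM, all 3 BPAF libraries lay below all 3 DMSO libraries in 27 proteasome genes, against 12.8% of all genes. The reverse order in CPM was seen in 0 proteasome genes, against 12.0% of all genes. On the deposited TPM the reverse order was seen in PSMB2, PSMC4, PSMD3, PSME3 and PSMF1, and PSMB2 was among the 27 in CPM. The shares of all genes with either order on TPM were not counted. The median log2 fold change was -0.088 for the proteasome genes and 0.0019 for all tested genes. Most of these are abundant genes, so protein-coding genes with a mean level of at least 10 CPM, a background chosen after the data were seen, were also counted. Among those 9244 genes, 5.45% were called lower and 2.23% higher, and 58.1% had a log2 fold change below 0. Every BPAF library lay below every DMSO library in 18.9% of them and above in 9.30%. This background is not matched for level. The median DMSO level was 203 CPM for the called proteasome genes and 130 CPM for the uncalled ones. Across the 47 genes, log2 fold change and mean CPM had a Spearman rho of -0.24. The part of level in these shares was not tested.

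**Figure D1:**
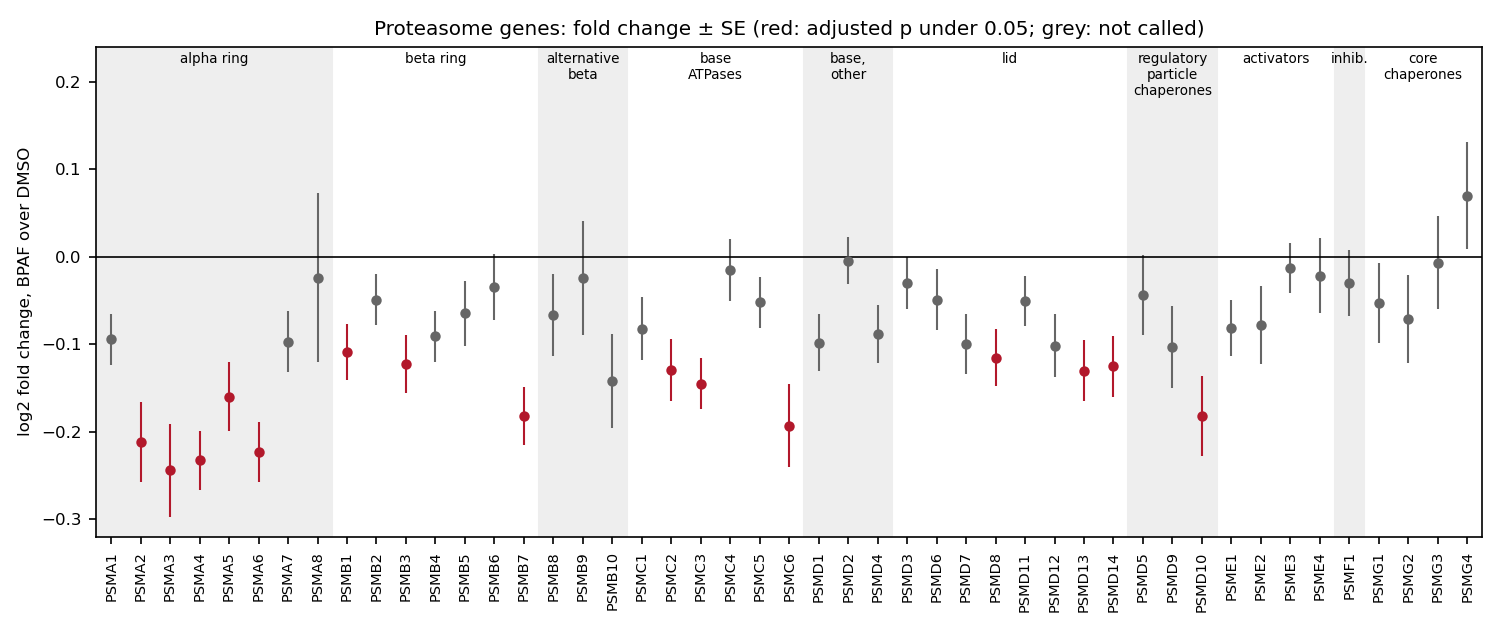
Log2 fold change (BPAF over DMSO) of the 47 tested proteasome genes with its SE, grouped by role, with genes past the test in red. The 15 called genes lie below 0 and are most frequent in the alpha ring, where 5 of 8 were called, and PSMG4 is the one point above 0.

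**Figure D2:**
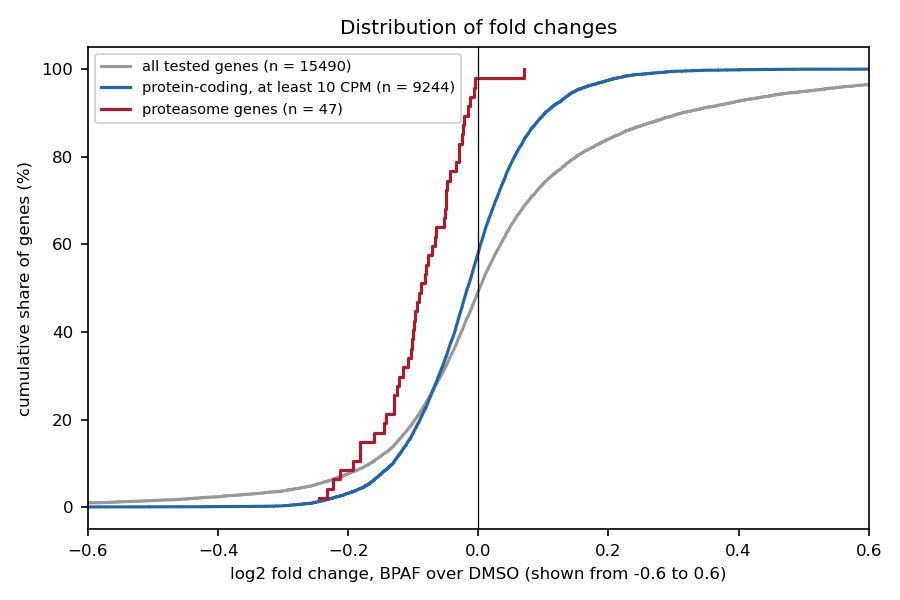
Cumulative share of genes (percent, vertical axis) against log2 fold change, BPAF over DMSO, shown from -0.6 to 0.6, for 47 proteasome genes, all 15490 tested genes and 9244 abundant protein-coding genes. At 0 the proteasome curve holds 46 of its 47 genes, where the other curves are at 49.2% and 58.1%.

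Single libraries contributed unequally. DMSO replicate 3 held the highest level of the 6 libraries in 34 of the 47 genes and in all 15 called genes. The summed level of the 48 genes was 8228, 8107 and 8586 CPM in the DMSO libraries and 7735, 7771 and 7730.2 CPM in the BPAF libraries. The exposed libraries were the 3 lowest, and the DMSO libraries differed more among themselves (8307 ± 249 CPM, SD, n = 3) than the BPAF libraries did (7745 ± 22.1 CPM). As a share of the scaled counts this was 0.831% in DMSO and 0.775% in BPAF.

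The alpha subunits, which form the outer rings and the gate of the barrel, held the most calls: 5 of 8 tested genes fell, and the group median was -0.19 on the log2 scale. PSMA4 (ENSG00000041357, chr15:78540405-78552419, + strand, GRCh38, GENCODE release 29) measured 345, 341 and 375 CPM in the DMSO libraries and 305, 297 and 301 CPM in the BPAF libraries. Each exposed library was below each control, and the gene fell by 14.9%, or -0.23 ± 0.03 on the log2 scale (mean difference ± SE, edgeR adjusted p = 0.000585). PSMA6 (ENSG00000100902, chr14:35278633-35317493, + strand) held 464, 455 and 503 CPM in DMSO and 397, 414 and 408 CPM in BPAF. It also separated the groups and was 14.3% lower (log2 fold change -0.22 ± 0.03, edgeR adjusted p = 0.00120).

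The largest fall among the called genes was that of the alpha subunit PSMA3 (chr14:58244831-58272012, + strand). Its levels were 207, 203 and 237 CPM in DMSO and 178, 184 and 184 CPM in BPAF. DMSO replicate 3 stood highest, the groups did not overlap, and the gene was lower by 15.6% (log2 fold change -0.24 ± 0.05, edgeR adjusted p = 0.0276). PSMA2 (chr7:42916857-42932223, - strand) measured 126, 119 and 139 CPM in DMSO and 111, 112 and 108 CPM in BPAF, again with no overlap (-0.21 ± 0.05, edgeR adjusted p = 0.0126). Part of its exons is shared with ENSG00000256646 on the same strand, and the sum of both genes was 203 ± 15.6 CPM in DMSO and 177 ± 3.00 in BPAF (SD, n = 3). PSMA5 (chr1:109399031-109426427, - strand) held 197, 195 and 218 CPM in DMSO and 176, 183 and 187 CPM in BPAF. The groups were separate by a narrow gap, and the fall was 10.5% (-0.16 ± 0.04, edgeR adjusted p = 0.0237).

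The other alpha subunits did not pass. PSMA1 held 327, 323 and 336 CPM in DMSO and 306, 302 and 316 CPM in BPAF, groups that did not overlap (log2 fold change -0.09 ± 0.03, edgeR adjusted p = 0.0615). PSMA7 had overlapping groups and an edgeR adjusted p of 0.119. PSMA8, the alpha subunit that takes part in the testis form of the proteasome, was the least abundant tested proteasome gene, at 9.23 TPM in DMSO, and its log2 fold change was -0.02 ± 0.10.

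Of the 7 constitutive beta subunits, 3 fell and the group median was -0.091. Among the catalytic subunits only PSMB7, which carries the trypsin-like site, was called. PSMB7 (ENSG00000136930, chr9:124353466-124415444, - strand) measured 244, 239 and 259 CPM in DMSO and 214, 223 and 217 CPM in BPAF. The lowest control lay above the highest exposed library, with a fall of 11.9% (log2 fold change -0.18 ± 0.03, edgeR adjusted p = 0.00272). PSMB5, the chymotrypsin-like subunit and the main target of proteasome inhibitor drugs, held 131, 123 and 122 CPM in DMSO and 118, 124 and 118 CPM in BPAF. Its groups overlapped (-0.06 ± 0.04, edgeR adjusted p = 0.361). PSMB6, the caspase-like subunit, held 126, 118 and 126 CPM in DMSO and 123, 123 and 117 CPM in BPAF, also with overlap (-0.03 ± 0.04, edgeR adjusted p = 0.680). The difference in response between PSMB7 and the other catalytic subunits was not tested.

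Both other called beta subunits have a structural place in the ring. PSMB3 (chr17:38752736-38764231, + strand) measured 167, 159 and 169 CPM in DMSO and 154, 153 and 149 CPM in BPAF. The groups did not overlap (log2 fold change -0.12 ± 0.03, edgeR adjusted p = 0.0319). PSMB1 (chr6:170535117-170553341, - strand) held 215, 212 and 227 CPM in DMSO and 206, 200.5 and 200.3 CPM in BPAF. It showed the smallest fall of the 15, 7.26%, and lay closest to the threshold (edgeR adjusted p = 0.0482). PSMB4 and PSMB2 had groups that did not overlap in CPM but did not pass (edgeR adjusted p = 0.0741 and 0.373). On the deposited TPM the order of PSMB2 was reversed, with a mean of 129 TPM in DMSO and 138 TPM in BPAF.

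Immunoproteasome subunits were detected at lower levels, and 0 of the 3 passed with edgeR, DESeq2 or limma-voom, with 1 at an unadjusted p below 0.05. PSMB8 measured 91.2, 94.4 and 104 CPM in DMSO and 94.9, 88.4 and 93.0 CPM in BPAF, and the groups overlapped (log2 fold change -0.07 ± 0.05, edgeR adjusted p = 0.474). PSMB9 held 44.4, 38.6 and 45.7 CPM in DMSO and 41.6, 45.2 and 39.9 CPM in BPAF (-0.02 ± 0.06, edgeR adjusted p = 0.893). PSMB10 held 51.6, 48.0 and 55.2 CPM in DMSO and 47.5, 45.5 and 47.3 CPM in BPAF. Its groups were separate, and its log2 fold change of -0.14 ± 0.05 did not pass (edgeR adjusted p = 0.132).

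Each immunoproteasome subunit replaces a constitutive one, so their levels per gene length were set against each other. On the scale of TPM (transcript abundance scaled for gene length and library total), PSMB8 stood at 0.646 of PSMB5 in DMSO and 0.647 in BPAF. PSMB9 stood at 0.216 of PSMB6 in DMSO and 0.219 in BPAF. The ratio of PSMB10 to PSMB7 was 0.210 in DMSO and 0.214 in BPAF. On the log2 scale the ratios moved between the groups by less than the SD of either group, which was 0.05 to 0.15 (n = 3).

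Among the ATPases that unfold substrates at the base of the regulatory particle, 3 of 6 fell and the median log2 fold change was -0.11. PSMC3 (ENSG00000165916, chr11:47418769-47426473, - strand) measured 264, 256 and 265 CPM in DMSO and 239, 239 and 231 CPM in BPAF. The gap between the groups was wider than the range within either, and the fall was 9.56% (log2 fold change -0.14 ± 0.03, edgeR adjusted p = 0.00621). PSMC6 (chr14:52707172-52728587, + strand) held 86.7, 85.8 and 97.0 CPM in DMSO and 75.5, 79.9 and 80.3 CPM in BPAF (-0.19 ± 0.05, edgeR adjusted p = 0.0195). PSMC2 (chr7:103344254-103369395, + strand) held 179, 174 and 191 CPM in DMSO and 162, 167 and 168 CPM in BPAF (-0.13 ± 0.04, edgeR adjusted p = 0.0344). Neither gene had overlapping groups, and DMSO replicate 3 was highest in both. PSMC1, PSMC4 and PSMC5 did not pass (edgeR adjusted p = 0.204, 0.871 and 0.345).

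The non-ATPase base subunits, PSMD1, PSMD2 and PSMD4, include scaffolds and ubiquitin receptors, and 0 of the 3 passed with edgeR, DESeq2 or limma-voom, with 2 at an unadjusted p below 0.05. PSMD1 held 239.7, 248 and 245 CPM in DMSO and 222, 223 and 239 CPM in BPAF. The groups were separated only by the narrow gap between DMSO replicate 1 and BPAF replicate 3 (log2 fold change -0.10 ± 0.03, edgeR adjusted p = 0.0792). PSMD2, the scaffold that docks ubiquitin shuttles, measured 486, 479 and 477 CPM in DMSO and 484, 475 and 479 CPM in BPAF, with overlapping groups (-0.0044 ± 0.03, edgeR adjusted p = 0.960).

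In the lid, 3 of 8 subunits fell and the median log2 fold change was -0.10. PSMD14 (chr2:161308038-161411717, + strand), the metalloprotease that cuts ubiquitin chains off substrates, held 148, 144 and 154 CPM in DMSO and 135, 134 and 140.0 CPM in BPAF. No exposed library reached a control (log2 fold change -0.13 ± 0.03, edgeR adjusted p = 0.0362). PSMD13 (chr11:236546-252984, + strand) held 187, 195 and 206 CPM in DMSO and 182, 177 and 178 CPM in BPAF (-0.13 ± 0.03, edgeR adjusted p = 0.0291). PSMD8 (chr19:38374536-38383824, + strand) held 212, 210.2 and 223 CPM in DMSO and 201, 204 and 191 CPM in BPAF (-0.12 ± 0.03, edgeR adjusted p = 0.0425). The groups did not overlap in either gene. With DESeq2 without its independent filter, 0 of the 8 lid genes passed and 5 had an unadjusted p below 0.05, against 2177 of all 15490 genes.

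Among the 12 assembly and accessory genes 1 was called lower. The share was 3.40% over all tested genes and 5.45% over protein-coding genes of at least 10 CPM, so this call is not read as a result about the group. PSMD10, also known as gankyrin, a chaperone of regulatory particle assembly (chrX:108084207-108091618, - strand), measured 57.7, 58.5 and 58.8 CPM in DMSO and 52.5, 49.5 and 52.2 CPM in BPAF. The controls averaged 58.3 ± 0.581 CPM (SD, n = 3) and all lay above the exposed libraries. The fall was 11.9% (log2 fold change -0.18 ± 0.05, edgeR adjusted p = 0.0228). The chaperones of the core particle, PSMG1 to PSMG4, had 0 of 4 called and 0 at an unadjusted p below 0.05. PSMG2 had the smallest p among them (-0.07 ± 0.05, edgeR adjusted p = 0.474), and PSMG4 was at 0.07 ± 0.06 (edgeR adjusted p = 0.591). DESeq2 and limma-voom called 0 of these 4 as well.

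The activators that open the core in place of the regulatory particle, PSME1 to PSME4, had 0 of 4 called by edgeR, DESeq2 or limma-voom, with 1 at an unadjusted p below 0.05. That gene was PSME1, induced by interferon together with its partner PSME2. It held 162, 157 and 162 CPM in DMSO and 154, 152 and 149 CPM in BPAF, with separate groups (log2 fold change -0.08 ± 0.03, edgeR adjusted p = 0.149). PSMF1, an inhibitor of the core particle, held 117, 119.9 and 117 CPM in DMSO and 121, 112 and 113 CPM in BPAF. Its groups overlapped (-0.03 ± 0.04, edgeR adjusted p = 0.734).

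**Figure D3:**
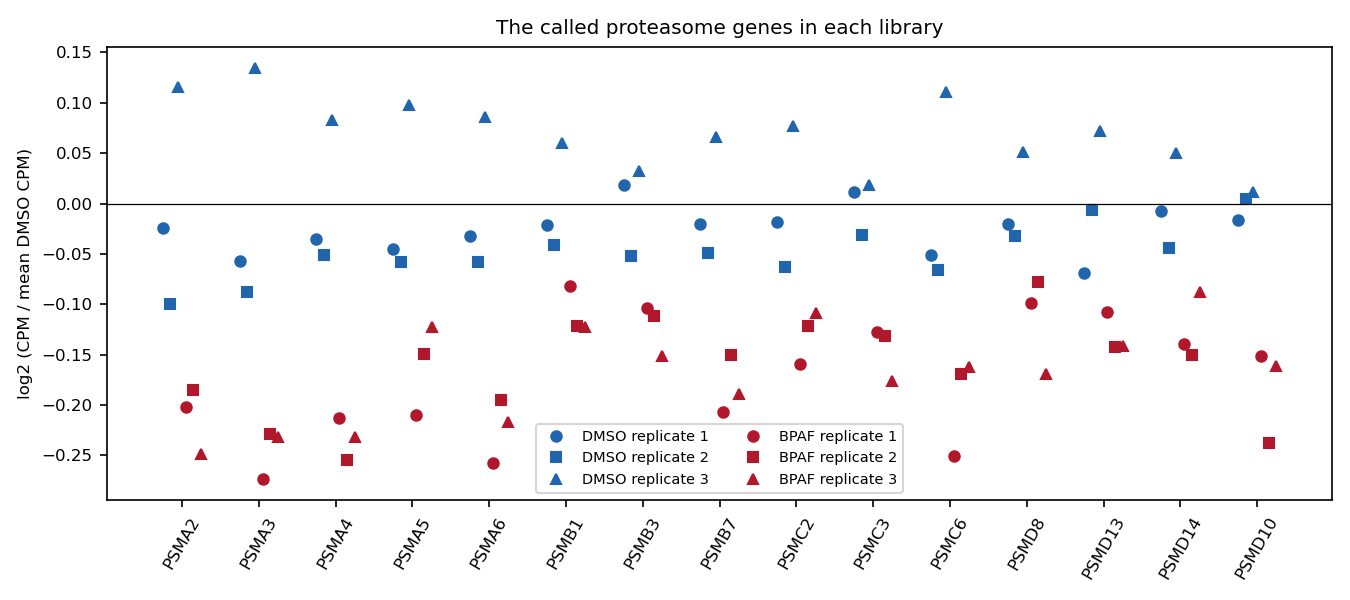
Level of the 15 called proteasome genes in each library, as log2 of its CPM over the mean of the DMSO libraries. The BPAF points lie below the DMSO points of the same gene throughout, and DMSO replicate 3 is the highest point for each gene.

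By assembly, 8 of 18 tested core particle genes and 6 of 17 regulatory particle genes fell, with medians of -0.10 and -0.098. Among the 12 chaperones, activators and the inhibitor, 1 fell and the median was -0.048. Over all tested genes 3.40% were called lower, and 5.45% over protein-coding genes of at least 10 CPM. The difference between these groups was not tested.

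Core particle genes were the most abundant when levels were compared per length. PSMA6 led with 886 ± 25.1 TPM in DMSO (SD, n = 3), followed by PSMA4 at 769 ± 21.5, PSMA7 at 602 ± 9.75 and PSMB4 at 562 ± 5.16. Each of these was separate from its neighbour in the order. PSMB3, PSMA3, PSMB7 and PSMB1, at 453 to 457 TPM, overlapped in their libraries. Median TPM in DMSO was 428 for the alpha subunits, 453 for the constitutive beta subunits and 95.3 for the immunoproteasome subunits. It was 204 for the ATPases, 161 for the lid, 213 for the activators and 86.6 for the core chaperones. Of the 46 neighbouring pairs in the order, 28 overlapped.

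**Figure D4:**
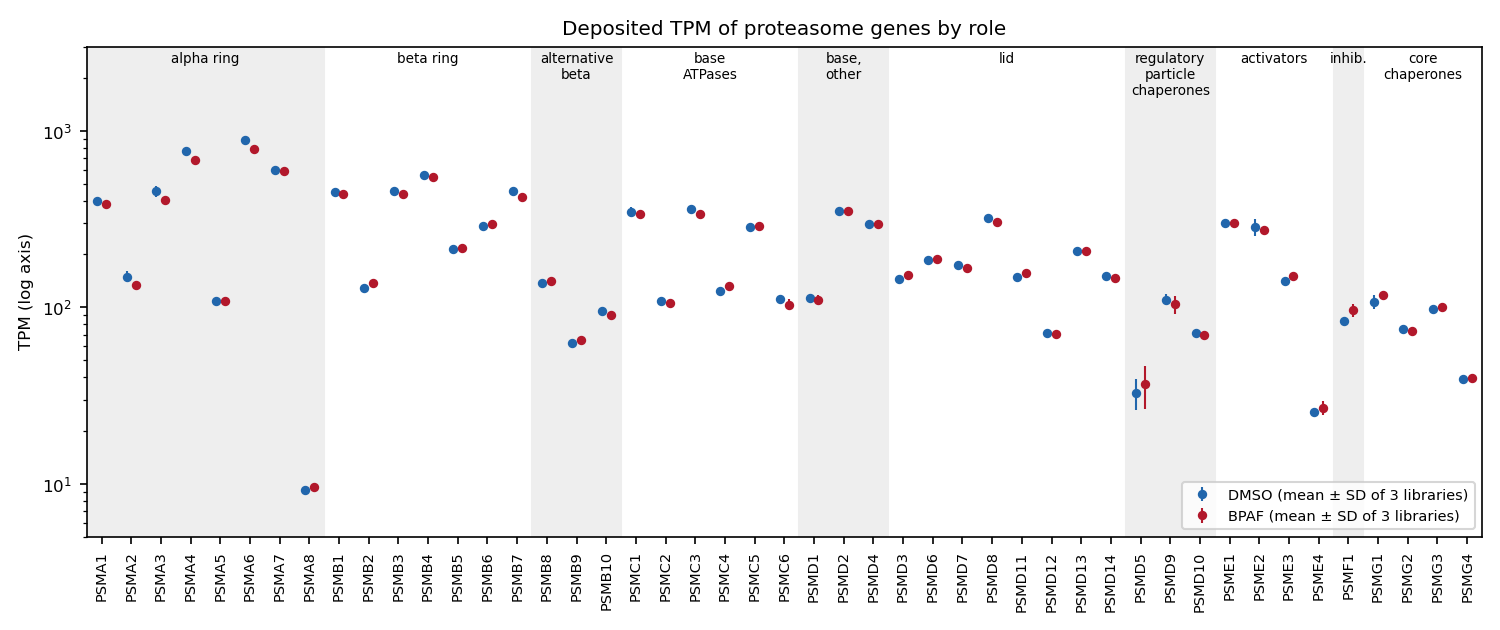
Deposited TPM (log axis) of the 47 tested proteasome genes by role, as the mean and SD of 3 libraries in DMSO (blue) and BPAF (red). Levels run from 9.23 TPM for PSMA8 to 886 TPM for PSMA6 in DMSO, and the colours of a gene lie close together.

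The deposited TPM gave a smaller difference between the groups than the counts, but not relative to all tested genes. The median of the proteasome genes minus that of all tested genes was -0.090 on counts and -0.096 on log2(TPM + 1). The summed TPM of the proteasome genes was 11010.5, 11070.2 and 11234 in DMSO and 10763, 10646 and 10893 in BPAF, with no overlap. On log2(TPM + 1), the median log2 fold change of the proteasome genes was -0.019, while that of all tested genes was 0.078. In that fit, limma called 0 proteasome genes and 1 of all 15490 genes. An unadjusted p below 0.05 was seen in 8 proteasome genes and 2705 of all genes. Of the 8, PSMF1 and PSMB2 were higher in BPAF (0.20 and 0.089, limma unadjusted p = 0.0148 and 0.0432), and the others were lower. From counts to TPM, 20 proteasome genes turned from below to above 0. Of the 15 genes called on counts, 14 stayed below 0, and PSMA5 was at 0.0080. No source used here says how the deposited TPM were made from the reads.

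Calls differed in how firmly they stood. PSMA4, PSMA6, PSMB7 and PSMC3 passed with every one of the 6 libraries left out in turn, where the highest adjusted p was 0.0399 for PSMC3, and in all 10 other fits on counts. PSMA3 passed in those 10 fits too, but not when any one of the BPAF libraries was left out (highest adjusted p 0.135). The other 10 called genes each failed without BPAF replicate 1 and without BPAF replicate 3, and all of them except PSMA2 failed without DMSO replicate 3. Without DMSO replicate 1, PSMB1, PSMB3, PSMC2, PSMD8, PSMD10 and PSMD14 failed, and PSMD13 failed without DMSO replicate 2. Without BPAF replicate 2, PSMA5, PSMB1, PSMB3, PSMC2, PSMD10, PSMD13 and PSMD14 failed. The highest adjusted p of these 10 genes ran from 0.0774 for PSMA2 to 0.195 for PSMD8. Without DMSO replicate 3, the highest control, 6 proteasome genes were called lower, against 2.22% of all genes, and the median was -0.076. The number called lower was 9 without DMSO replicate 1 (1.70% of all genes) and 16 without DMSO replicate 2 (3.40%). Leaving out a BPAF library gave 4 calls for replicate 1 (1.11%), 7 for replicate 2 (2.42%) and 5 for replicate 3 (1.44%). DESeq2 without its independent filter called 8 (2.41% of all genes).

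**Figure D5:**
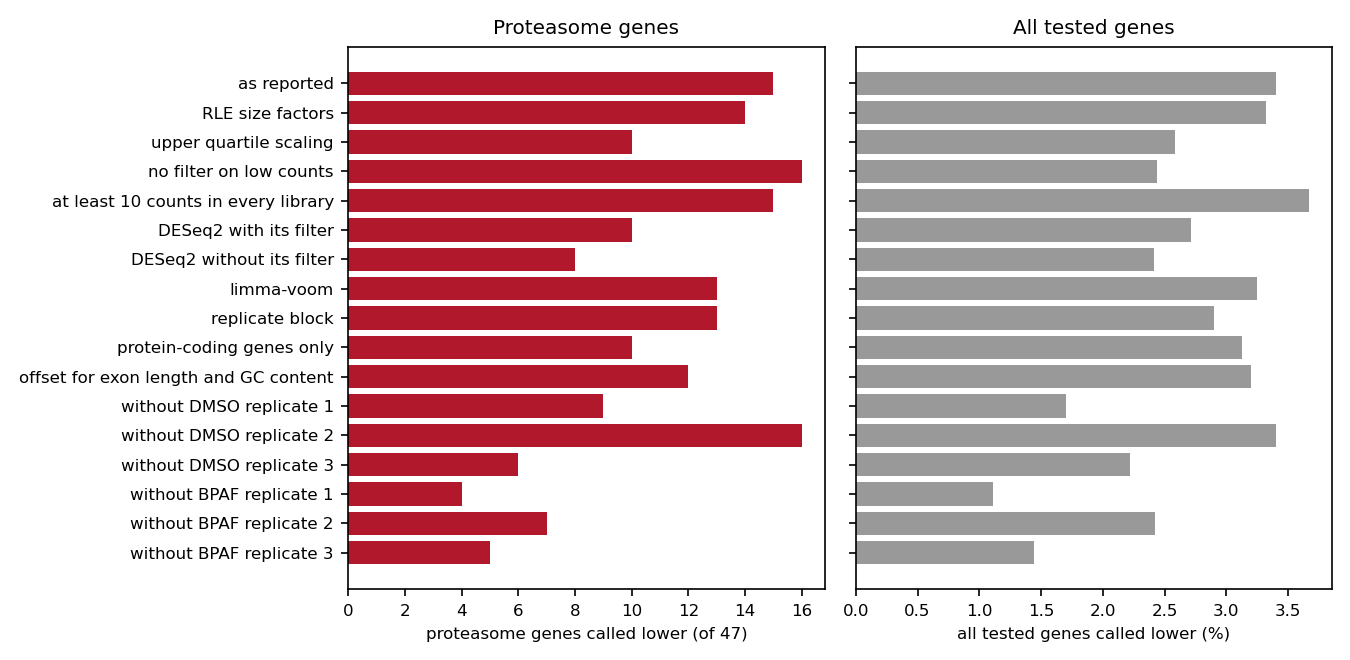
Number of proteasome genes called lower out of 47 (left) and percent of all tested genes called lower (right) as reported, under each other fit on counts and with each library left out. The count runs from 4 without BPAF replicate 1 to 16 without DMSO replicate 2, and the share of all genes is lowest, at 1.11%, in the same fit as the lowest count.

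GC content differed between the called and the other proteasome genes. The longest transcripts of the 15 called genes had a median GC content of 40.7% (range 32.0% to 56.2%), against 48.9% (36.8% to 60.1%) for the 32 others. Across the 47 genes, the log2 fold change and GC content had a Spearman rho of 0.32 and a Pearson r of 0.38. Across 15122 tested genes with a value the rho was 0.16. These are descriptions across genes, which share the same 6 libraries and are not independent replicates. With an offset fitted to exon length and GC content, 12 proteasome genes were called lower, against 3.20% of all genes, and 9 of them were among the 15. PSMA2, PSMA5, PSMB1, PSMC2, PSMC6 and PSMD14 no longer passed in that fit, and PSMA7, PSMB4 and PSME1 did.

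Promoter sequence is a feature that the choice of genes did not use. RefSeq promoters of GRCh38.p14, from 250 bases before to 50 bases after an annotated start, were matched by symbol for 41 of the 47 tested genes. Searched on both strands were the CCAAT box (CCAAT) as well as the GC box, read here as GGGCGG. A motif of ETS factors, CCGGAAGT, was added. The fourth was the core of the antioxidant response element, which NFE2L1 and NFE2L2 bind, written TGACNNNGC. Shown first are the promoters of 3 genes that passed in every fit on counts and with every library left out, from 5′ to 3′ on the strand of the gene. Capitals mark matches to any of the 4 motifs. PSMA4 is listed with 3 starts and PSMA6 with 2, of which the most upstream is shown. The windows are chr15:78540155-78540454 (+ strand) for PSMA4, chr14:35292067-35292366 (+ strand) for PSMA6 and chr11:47426390-47426689 (- strand) for PSMC3.
PSMA4: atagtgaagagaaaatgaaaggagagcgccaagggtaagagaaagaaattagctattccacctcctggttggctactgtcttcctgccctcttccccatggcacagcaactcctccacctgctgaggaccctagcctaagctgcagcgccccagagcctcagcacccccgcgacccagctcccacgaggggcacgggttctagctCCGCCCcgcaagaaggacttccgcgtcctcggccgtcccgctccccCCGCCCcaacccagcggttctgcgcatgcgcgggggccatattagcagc
PSMA6: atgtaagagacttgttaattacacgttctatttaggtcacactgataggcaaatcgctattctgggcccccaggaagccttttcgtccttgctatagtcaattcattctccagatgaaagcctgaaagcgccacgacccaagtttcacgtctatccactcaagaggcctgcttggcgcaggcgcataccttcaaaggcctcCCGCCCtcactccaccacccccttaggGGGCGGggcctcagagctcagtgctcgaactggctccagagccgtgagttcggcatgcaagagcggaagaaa
PSMC3: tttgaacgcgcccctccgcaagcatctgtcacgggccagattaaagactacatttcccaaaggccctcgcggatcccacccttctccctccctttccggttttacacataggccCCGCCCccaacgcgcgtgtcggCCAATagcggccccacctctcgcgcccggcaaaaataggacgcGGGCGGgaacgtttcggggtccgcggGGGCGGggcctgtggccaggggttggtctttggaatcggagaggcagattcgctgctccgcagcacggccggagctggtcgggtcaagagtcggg
None of these 3 windows holds TGACNNNGC, and all hold the GC box. Another of the listed starts of PSMA4 has a window that does hold TGACNNNGC, and PSMA4 is counted among the genes with it below. A gene was counted where any of its listed windows held the motif.

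The antioxidant response element core was found in 15 of the 41 matched genes, 36.6%, against 16.1% of 27305 genes with a promoter in the table. That background, used for every motif here, was not limited to tested genes and not matched for level or GC content. Of 13 called genes with a promoter 2 held it, PSMA4 and PSMB3, and of 28 tested genes not called 13 did. PSMB3, which fell, and PSMD3, a lid scaffold that was not called (log2 fold change -0.03 ± 0.03, edgeR adjusted p = 0.640), are shown to set a called and an uncalled gene with the motif side by side. Both were chosen after their matches and values had been seen. The windows are chr17:38752491-38752790 (+ strand) for PSMB3 and chr17:39980557-39980856 (+ strand) for PSMD3, and capitals have the same meaning.
PSMB3: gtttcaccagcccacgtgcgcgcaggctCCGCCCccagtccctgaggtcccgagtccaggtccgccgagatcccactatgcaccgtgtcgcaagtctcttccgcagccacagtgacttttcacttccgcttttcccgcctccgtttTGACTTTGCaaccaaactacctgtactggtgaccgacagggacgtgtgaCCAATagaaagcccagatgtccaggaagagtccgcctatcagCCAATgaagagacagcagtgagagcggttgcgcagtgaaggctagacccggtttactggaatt
PSMD3: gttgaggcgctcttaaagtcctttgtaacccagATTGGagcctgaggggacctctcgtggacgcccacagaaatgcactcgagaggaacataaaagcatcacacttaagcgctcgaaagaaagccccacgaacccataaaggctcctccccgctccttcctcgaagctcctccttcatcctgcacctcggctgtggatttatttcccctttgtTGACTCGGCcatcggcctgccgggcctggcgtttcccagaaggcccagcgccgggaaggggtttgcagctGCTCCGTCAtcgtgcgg
In PSMB3 the match starts at -104 relative to the annotated start. PSMD3 has matches at -37 and, on the opposite strand, 34. CCAAT was found in 19 of the 41 genes (46.3%, against 39.7% of all genes), in 10 of the 13 called and 9 of the 28 not called. The GC box was found in 29 (70.7%, against 48.3%), in 9 of the 13 and 20 of the 28. CCGGAAGT was found in 10 (24.4%, against 4.95%), in 5 of the 13 and 5 of the 28. A match describes the letters of these windows and does not show binding, and the differences between called and uncalled genes were not tested.

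Genes around the proteasome were read from 5 lists in the same fit, where 3.40% of all tested genes were called lower and 2.65% higher. Of 17 genes for associated factors, which include receptors, deubiquitinases and assembly factors, 2 fell and 0 rose, with a median of 0.00046. POMP, the maturation factor that completes the core particle, held 156, 141 and 163 CPM in DMSO and 126, 129 and 131 CPM in BPAF. The groups did not overlap, and the size of the fall was close to that of PSMA3 (log2 fold change -0.25 ± 0.04, edgeR adjusted p = 0.00315). ADRM1, a ubiquitin receptor of the base, held 133, 143 and 137 CPM in DMSO and 125, 125 and 121 CPM in BPAF (-0.15 ± 0.04, edgeR adjusted p = 0.0143). Its groups were separate as well, but it did not pass without DMSO replicate 2 or without BPAF replicate 1 or 3 (highest adjusted p 0.0719). SEM1, a small lid subunit outside the symbol rule, had overlapping groups (-0.13 ± 0.05, edgeR adjusted p = 0.145).

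The list around NFE2L1, which controls subunit transcription, also holds NFE2L2, KEAP1 and BACH1. Its 11 tested genes had 0 calls by edgeR, DESeq2 or limma-voom. In edgeR 3 of them had an unadjusted p below 0.05, against 3076 of all 15490 genes. NFE2L1 itself held 251, 255 and 242 CPM in DMSO and 237, 241 and 235 CPM in BPAF. Its groups were separate by less than 1 CPM (log2 fold change -0.07 ± 0.03, edgeR adjusted p = 0.206). NFE2L2 had overlapping groups (-0.06 ± 0.05, edgeR adjusted p = 0.603).

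Among 20 genes for ubiquitin and its conjugation, 4 fell, 1 rose and the median was -0.042. Among those that fell, the conjugating enzymes UBE2N, UBE2K and UBE2D3 fell by 0.16, 0.12 and 0.10 on the log2 scale (edgeR adjusted p = 0.00826, 0.0409 and 0.0439). UBE2N did not pass without BPAF replicate 1 (adjusted p = 0.0610), UBE2K passed only without DMSO replicate 3 and UBE2D3 only without DMSO replicate 2 (highest adjusted p 0.158 and 0.181). UBE2G2, a conjugating enzyme of the degradation pathway of the endoplasmic reticulum, rose from 248 ± 4.50 to 278 ± 5.17 CPM (0.17 ± 0.03, edgeR adjusted p = 0.00222). Of 13 genes for ubiquitin shuttles and the p97 segregase, 0 were called by the 3 tools. In edgeR 2 had an unadjusted p below 0.05, against 3076 of all 15490 genes. In the antigen processing list, which lies downstream of the immunoproteasome, 1 of 16 genes fell and 0 rose. Among protein-coding genes of at least 10 CPM, 5.45% were called lower, so 1 call in 16 is not read as a result about the list. The called gene was B2M, whose product pairs with class I heavy chains, with 649, 652 and 694 CPM in DMSO and 558, 561 and 565 CPM in BPAF (-0.24 ± 0.03, edgeR adjusted p = 0.000172).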

How the data were processed

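Poly(A) RNA of 6 Jurkat libraries, 3 per group, was sequenced by the submitters. The deposited table of estimated counts holds decimals for many genes, and no source used here says why. The deposited TPM are the authors' values, made with a tool not given in the sources used here. Per the submitters' processing notes, FastQC, cutadapt, HISAT2, featureCounts and the builds GRCh38 and hg38 were used. The annotation and strand setting of the counting are not given, so coordinates (GENCODE release 29, GRCh38) describe the matched identifiers. Symbols were found for 42217 identifiers, and 58396 were in GENCODE.

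Estimated counts were rounded to whole numbers. After filterByExpr and TMM scaling, edgeR 4.0.16 (R 4.3.3) fitted all 15490 genes by quasi-likelihood (robust, no covariate, Benjamini-Hochberg, threshold 0.05). Levels are TMM-scaled CPM, and the SE of a log2 fold change is its size over the square root of F. The biological coefficient of variation was 3.77%. Same-group libraries differed by more than sampling noise, with a chi-square of 2.34 to 3.90 per degree of freedom. The fit was checked on simulated counts with 200 genes changed: for 1.2-fold changes it recovered 54.5% with 4.39% false calls, for 1.5-fold changes 90.5% with 4.23%, and for 2-fold changes 98.5% with 6.19%. The simulated counts gave every gene the same biological coefficient of variation and were drawn independently between genes. These rates therefore do not cover spread that differs between genes, or shifts that genes share within a library. Recovery and false calls at folds below 1.2, the range of every called proteasome gene, were not tested. Alternatives used DESeq2 1.42.0 and limma 3.58.1. Of the tested proteasome genes, 38.3% held whole counts in every library (tolerance 1e-09), as did 35.6% of all tested genes. Whole counts were held by 9 of the 15 called proteasome genes and by 9 of the 32 others. The part of this difference in the calls was not tested.

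The members, lists and motifs were chosen with earlier results of these data known. Genes named are all proteasome genes past the threshold, the constitutive and alternative catalytic subunits, the smallest p of each role, and of each list up to 4 genes past the threshold plus POMP, SEM1, ADRM1, NFE2L1 and NFE2L2. UBE2D3, PSMA1, PSMA7, PSMA8, PSMB2, PSMB4, PSMC1, PSMC4, PSMC5, PSMD2, PSMD3, PSME3 and PSMG4 were named after their values were seen. A gene of the lists that the rule would name is not reported here.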

Additional observations from a re-analysis of the deposited data

How the results depend on the processing

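On the deposited TPM, limma called 1 gene in all with a pseudocount of 1, 2 with 0.1 and 0 without a filter. In each of these fits 0 proteasome genes were called lower and their median was -0.019, with 8, 8 and 10 of them and 2705, 2675 and 2907 of all genes at an unadjusted p below 0.05. With a pseudocount of 1 and the filter, PSMB2 and PSMF1 were among the 8 and were higher in BPAF. DESeq2 without its independent filter called 8 proteasome genes lower. With each library left out in turn, the calls over all genes ran from 322 to 861, proteasome genes lower from 4 to 16, and their median from -0.11 to -0.075. In each TPM fit 20 proteasome genes turned from below to above 0, which left 26 of 47 below. Of the genes named by rule these were PSMA5 (0.0080, 0.0081), PSMB5 (0.023, 0.023), PSMB6 (0.041), PSMB8 (0.025), PSMB9 (0.061, 0.062) and PSMF1 (0.20). With a library left out, 6 genes turned in at least 1 fit (PSMA8, PSMB9, PSMC4, PSMD2, PSME4 and PSMG3), and 42 to 46 genes were below 0. PSMB9 ran from -0.099 to 0.021. The causes were not tested. No proteasome gene was called higher in any fit.

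Same-numbered libraries had correlations of -0.00100, -0.051 and 0.010 between their deviations from the group means. All DMSO and BPAF pairs ran from -0.051 to 0.040, so no pairing by replicate number was seen. The deviations also hold counting noise, so these values cannot show that the libraries were handled unpaired. With the replicate block, 826 genes were called over all and 13 proteasome genes were lower, all among the 15.

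The falls are small and rest on 3 libraries a group, and a gene that did not pass is not shown to be unchanged. Exposure time, counting strand and the origin of the decimals are not settled by the labels. Fold changes on counts and TPM differ for these genes and over all tested genes, and no source used here says how the TPM were derived.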

Other observations

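Proteasome genes have many pseudogenes with a sequence close to the parent. Of 44 listed by symbol, 18 had a count in any library, 1 passed the filter and 0 were called by edgeR. That one was PSMC1P1, with 28.9 ± 5.49 CPM in the DMSO libraries (SD, n = 3) and 26.9 ± 4.21 CPM in the BPAF libraries (edgeR adjusted p = 0.832). The copies of PSMC1 together held 15.5% of the level of PSMC1 in DMSO, and no source used here says how reads shared between copies were assigned. In NRDE2, which lies on the opposite strand, 48.3 CPM were counted in BPAF and 47.1 in DMSO, and its exons cover 75.8% of those of PSMC1.

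Of 7 antisense or divergent transcripts named for proteasome genes, 4 were tested and did not pass in edgeR. PSMA3-AS1 held 45.4 ± 0.702 CPM in the DMSO libraries and 50.2 ± 3.55 CPM in the BPAF libraries (edgeR adjusted p = 0.121), beside PSMA3 itself, which was lower in BPAF. PSMG3-AS1 was at 11.4 and 12.2 CPM (edgeR adjusted p = 0.646), PSMB8-AS1 at 5.36 and 5.07 CPM (edgeR adjusted p = 0.837), and PSMD14-DT at 0.723 and 0.769 CPM (edgeR adjusted p = 0.939).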
